A study of Mus musculus with 23 samples.

Results

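Fibro-adipogenic progenitors are mesenchymal cells that lie between the fibres of skeletal muscle. They make matrix and growth factors for the muscle stem cells, and can themselves become adipocytes or fibroblasts. They are recognised by the receptor gene Pdgfra and by Ly6a, the gene of the surface antigen Sca-1, and they are a cell type apart from satellite cells, the Pax7-positive stem cells of muscle. The 9 marker genes followed here were Pdgfra, Ly6a, Fap, Dcn, Lum, Dpt, Pi16, Clec3b and Cxcl14. They were found by symbol among the 21264 genes of the deposited expression table, and all 9 were present.

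Transcripts were counted in 23 mouse libraries from the iPax3 line, pluripotent stem cells that form myogenic progenitors when the muscle lineage transcription factor Pax3 is induced. Cells labelled N1OE overexpress NICD1, the part of Notch1 that is released into the cell and activates transcription with the DNA-binding protein RBPJ, and cells labelled N1KO carry a knockout of Notch1. The groups were re-isolated N1OE (n = 4), re-isolated N1KO (n = 3) and re-isolated control (n = 9, genotype WT), all labelled as donor-derived satellite cells recovered after engraftment, and cultured N1OE progenitors (n = 3) and cultured control progenitors (n = 4, genotype WT). All 5 groups share the iPax3 line, and the labels do not say how many clones were used, how the re-isolated cells were sorted, or the age and strain of the hosts. Nor do they say whether replicates were separate cultures or hosts, so p-values measure the spread between these libraries, which may be partly technical. Stranded mRNA libraries were made from Trizol extracts of cultured cells, and amplified low-input cDNA from lysates of re-isolated cells. Cell setting and library kit therefore cannot be told apart.

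In bulk libraries fewer cells of a type and less RNA per cell cannot be told apart, which holds for every level given here. The unit is CPM, in which every library is scaled to an equal sum of reads. Totals ranged from 11637817 to 29154176 reads per library, so that 3 reads stood for 0.103 CPM at the greatest depth and 0.258 CPM at the least. Intervals and bounds made from these reads cover counting error only.

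By role, Pdgfra (chr5:75152292-75198215, plus strand) encodes a receptor tyrosine kinase for platelet-derived growth factors. Ly6a (chr15:74994877-74998031, minus strand) encodes a lipid-anchored surface protein, and its neighbours Ly6i, Ly6c1 and Ly6c2 are close relatives in sequence, so reads could have been split among them and its counts are uncertain to that extent. Fap (chr2:62500943-62574075, minus strand) encodes fibroblast activation protein, a membrane serine protease. Dcn (chr10:97479609-97518143, plus strand) and Lum (chr10:97565128-97572703, plus strand) encode decorin and lumican, small leucine-rich proteoglycans that bind collagen fibrils. These lie 47.0 kb apart in a row with Kera and Epyc, which belong to the same family. Dpt (chr1:164796644-164824266, plus strand) encodes the matrix protein dermatopontin. Pi16 (chr17:29317680-29330593, plus strand) encodes a membrane-anchored peptidase inhibitor that marks a progenitor-like state of fibroblasts in many tissues. Clec3b (chr9:123150946-123157432, plus strand) encodes tetranectin, a plasminogen-binding C-type lectin, and Cxcl14 (chr13:56288643-56296551, minus strand) encodes a chemokine. Coordinates are those of GENCODE M21 on GRCm38, the assembly also called mm10.

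Promoter sequence from RefSeq on GRCm38.p6, with 250 bases before and 50 after the annotated start, was matched for 4 of the 9 genes. It is shown for 3 of them, Dpt, Pi16 and Cxcl14, which had 0 or 1 read in every cultured N1OE library and rose in re-isolated N1OE libraries. The windows are chr1:164796413-164796712 on the plus strand for Dpt, chr17:29318632-29318931 on the plus strand for Pi16 and chr13:56296502-56296801 on the minus strand for Cxcl14, each printed 5′ to 3′ along the gene. Capitals mark matches to TGGGAA, the core letters bound by RBPJ, or to TATAAA, both searched on both strands, and the motifs share no letters here.
Dpt: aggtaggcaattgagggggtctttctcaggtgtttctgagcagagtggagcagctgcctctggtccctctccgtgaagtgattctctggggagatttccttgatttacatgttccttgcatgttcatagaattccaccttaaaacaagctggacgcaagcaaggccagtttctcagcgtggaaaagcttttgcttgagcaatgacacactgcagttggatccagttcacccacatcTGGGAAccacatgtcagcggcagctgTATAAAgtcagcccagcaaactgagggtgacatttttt
Pi16: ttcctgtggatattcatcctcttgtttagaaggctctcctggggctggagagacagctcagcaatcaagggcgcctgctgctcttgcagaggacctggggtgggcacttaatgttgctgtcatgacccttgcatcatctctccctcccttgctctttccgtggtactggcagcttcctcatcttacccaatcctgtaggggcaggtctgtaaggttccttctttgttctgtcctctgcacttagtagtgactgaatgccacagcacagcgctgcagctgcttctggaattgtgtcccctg
Cxcl14: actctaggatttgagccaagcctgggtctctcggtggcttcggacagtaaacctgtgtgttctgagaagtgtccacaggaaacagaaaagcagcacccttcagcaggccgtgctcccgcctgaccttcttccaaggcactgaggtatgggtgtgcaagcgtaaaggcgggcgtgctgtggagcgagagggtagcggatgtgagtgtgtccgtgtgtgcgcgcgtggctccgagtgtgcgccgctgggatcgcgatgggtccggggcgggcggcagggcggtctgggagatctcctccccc
The Dpt window held TGGGAA from position 237 and TATAAA from position 263, counted from 1 at the 5′ end. The windows of Pi16, Cxcl14 and Pdgfra held neither set of letters. The RefSeq window of Pi16 lies inside the gene as GENCODE M21 places it, with a start at chr17:29317680. It therefore holds no sequence before that start, which was not searched. Of the 32851 promoters of this length in the table, 25.6% held TGGGAA and 13.6% held TATAAA on either strand.

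As a check of the labels, Notch1 had 98.1 to 257 CPM in re-isolated N1OE, 15.6, 19.8 and 52.6 CPM in re-isolated N1KO, and 14.9 to 174 CPM in re-isolated control libraries. It had 297 to 370 CPM in cultured N1OE cells and 61.3 to 105 CPM in cultured control cells. Against all re-isolated controls Notch1 passed neither in N1OE (log2 fold change 1.22 ± 0.55, SE, limma adjusted p = 0.189) nor in N1KO (-1.57 ± 0.61, limma adjusted p = 0.286). It passed in cultured N1OE (2.08 ± 0.18, limma adjusted p = 0.00244) and between re-isolated N1OE and N1KO (2.79 ± 0.70, limma adjusted p = 0.0177). The 9 re-isolated controls fall into 5 libraries whose column header carries the mark GoF and 4 without it. The study's description uses these letters for Notch1 gain of function, and what they mean on a control library is not explained. The mark also stood on all 4 cultured control and 1 of 3 cultured N1OE libraries, and on no re-isolated N1OE or N1KO library, so in culture it goes largely with genotype. Notch1 had 14.9 to 88.9 CPM in the marked controls and 136 to 174 CPM in the unmarked controls, so the N1KO libraries lay below every unmarked control but overlapped the marked ones. The re-isolated N1OE libraries lay above every marked control but overlapped the unmarked ones. For each gene with exactly 2 reads, the number of genes with exactly 1 read was 4.18 to 6.82 in re-isolated N1OE, 1.25 to 1.40 in N1KO, 4.17 to 5.91 in the marked and 1.08 to 1.502 in the unmarked controls. In this measure of the libraries, which uses no gene's identity, N1OE stood with the marked and N1KO with the unmarked controls. Comparisons with the controls are therefore given against all 9 and against each set.

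The re-isolated libraries carried both satellite cell and fibro-adipogenic transcripts. Pax7, which defines satellite cells, averaged 110.6 ± 29.0 CPM in N1OE (SD, n = 4), 68.6 ± 73.0 CPM in N1KO (SD, n = 3) and 56.1 ± 32.2 CPM in control libraries (SD, n = 9). In culture it averaged 0.377 ± 0.451 CPM in N1OE (SD, n = 3) and 0.0561 ± 0.0844 CPM in control cells (SD, n = 4). The summed level of the 9 fibro-adipogenic markers was 639 to 1376 CPM in re-isolated N1OE, 4827 to 14624 CPM in N1KO and 206 to 10055 CPM in re-isolated control libraries. In culture it was 20.97 to 42.0 CPM in N1OE and 42.7 to 277 CPM in control cells. In N1KO replicate 2 the 9 genes held 1.46% of all reads. The summed level of 12 satellite cell markers was 3369 to 4909 CPM in re-isolated N1OE, 1392 to 2690 CPM in N1KO and 1582 to 3648 CPM in control libraries, and N1OE and N1KO did not overlap in either sum.

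**Figure D1:**
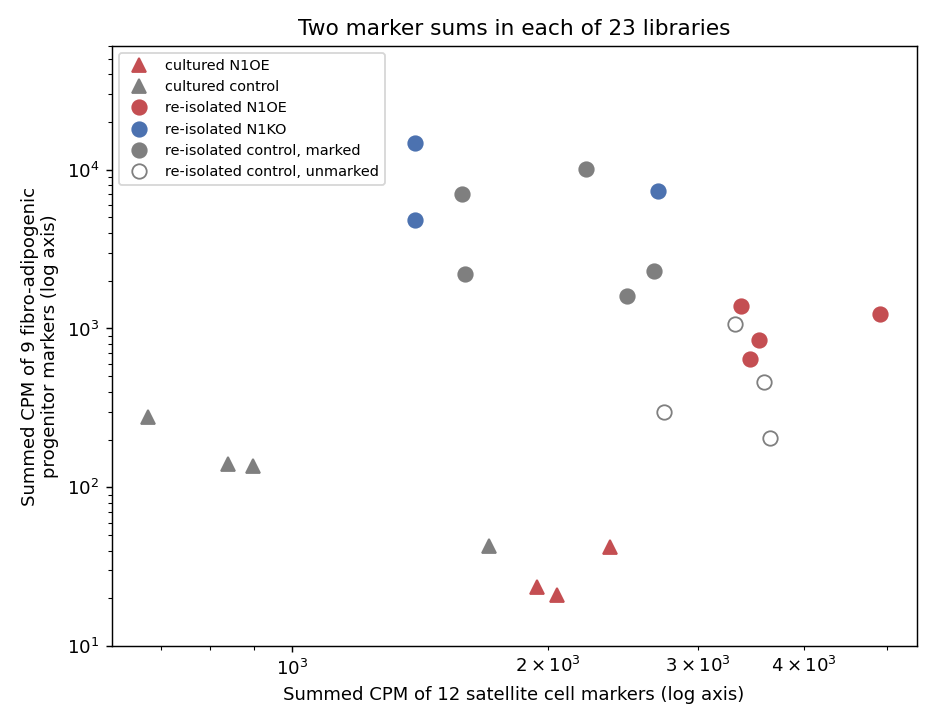
Summed CPM of the 9 fibro-adipogenic progenitor markers (vertical, log axis) against summed CPM of 12 satellite cell markers (horizontal, log axis), with a point for each of the 23 libraries. Re-isolated N1OE libraries lie at 639 to 1376 CPM of fibro-adipogenic markers and re-isolated N1KO libraries at 4827 to 14624 CPM, while the marked controls (1594 to 10055 CPM) lie above all unmarked controls (206 to 1073 CPM).

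**Figure D2:**
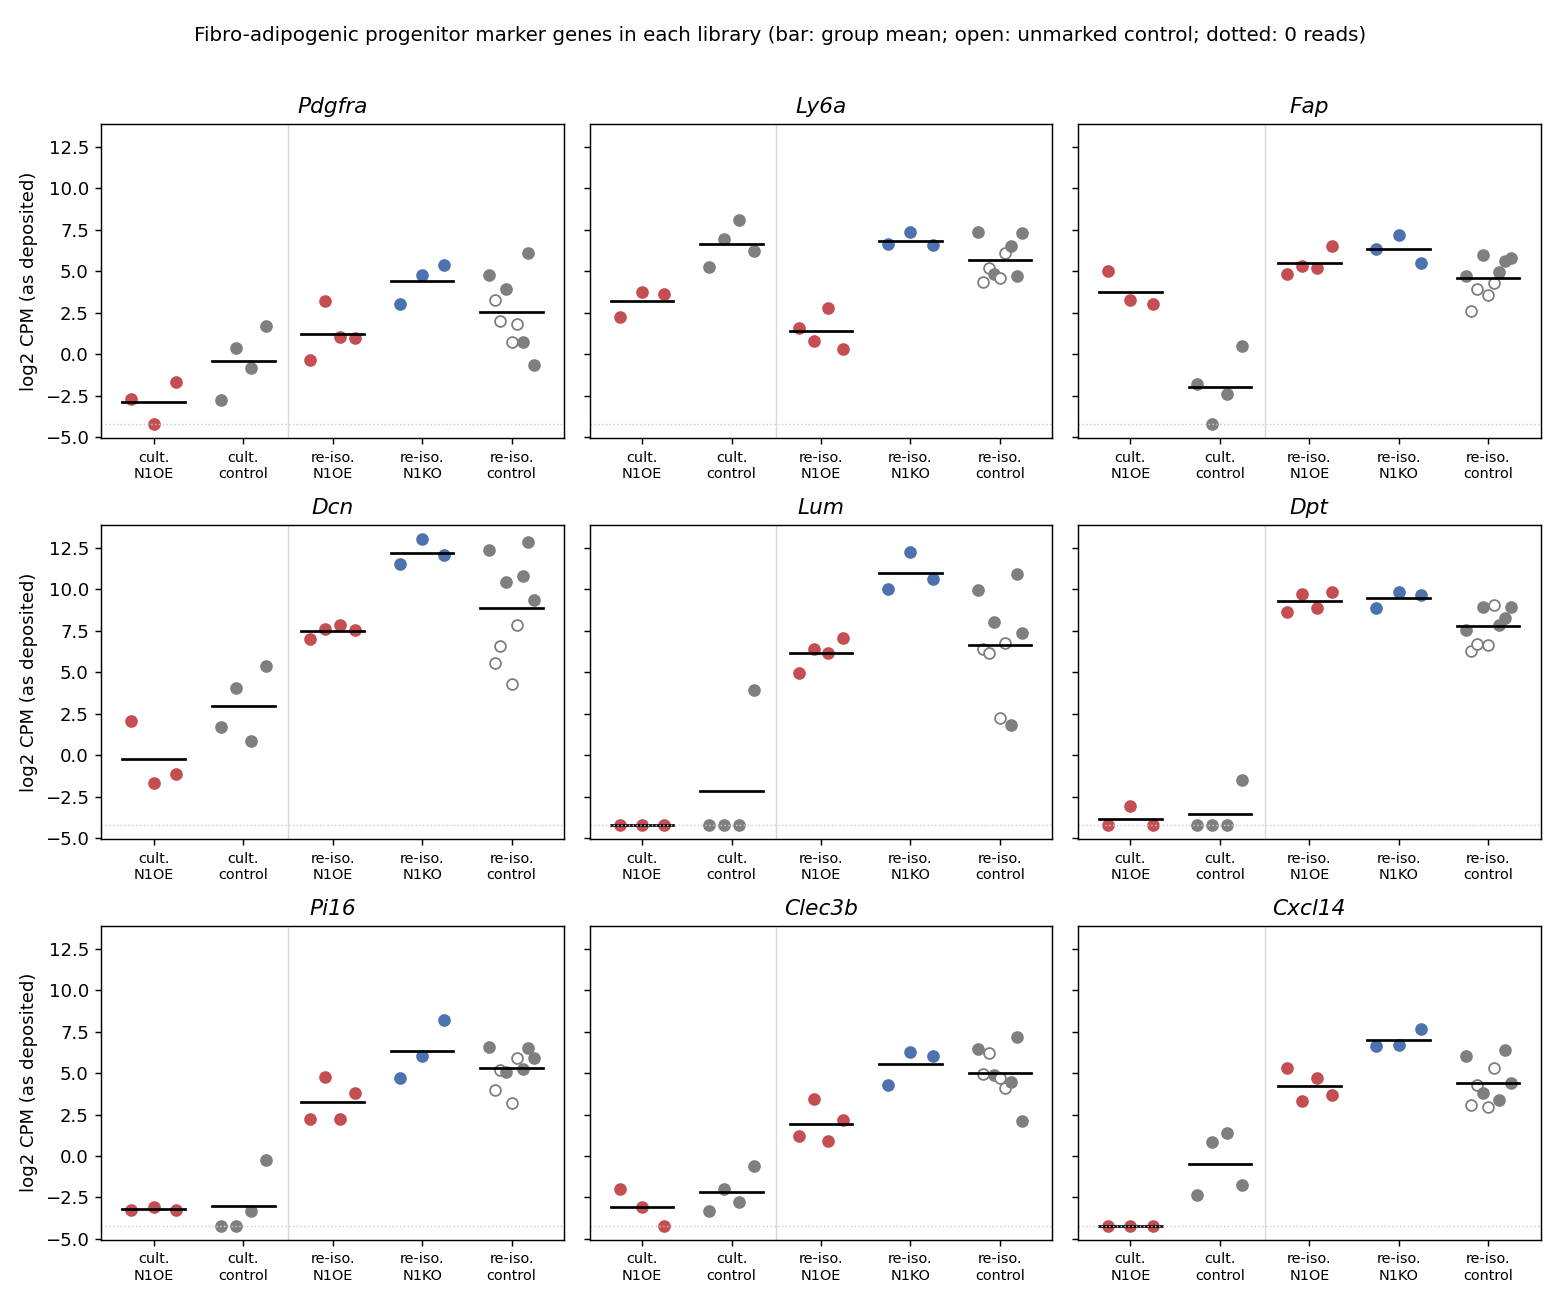
Deposited log2 CPM of each marker gene in every library, by group, with the group mean as a bar. Open circles are re-isolated controls without the header mark, and the dotted line is the value of 0 reads, -4.19.

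Among re-isolated libraries the order of groups differed from gene to gene, as the plot of levels by library shows. Dcn averaged 185 ± 43.9 CPM in N1OE (SD, n = 4), 5182 ± 2805 CPM in N1KO (SD, n = 3) and 1879 ± 2665 CPM in control libraries (SD, n = 9). Lum averaged 80.4 ± 42.7 CPM in N1OE, 2479 ± 2019 CPM in N1KO and 401 ± 646 CPM in control. For both proteoglycan genes N1KO stood highest and N1OE lowest, N1OE and N1KO did not overlap, and the control range covered all of N1OE and part of N1KO. Dpt averaged 662 ± 268 CPM in N1OE, 727 ± 227 CPM in N1KO and 279 ± 184 CPM in control, so that here N1OE stood beside N1KO. Fap had the same order, with 49.6 ± 29.4 CPM in N1OE, 91.0 ± 52.4 CPM in N1KO and 31.0 ± 20.5 CPM in control. Ly6a averaged 3.18 ± 2.57 CPM in N1OE, 120 ± 39.6 CPM in N1KO and 69.9 ± 59.1 CPM in control. It was the only one of the 9 genes whose 4 N1OE values lay below all 9 controls. The share of all genes that separated in this way was not counted. Pdgfra averaged 3.47 ± 3.91 CPM in N1OE, 25.9 ± 17.0 CPM in N1KO and 14.9 ± 22.5 CPM in control, with overlap between the control and each edited group.

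Per kilobase of annotated exon, the leading transcripts differed between groups. In re-isolated N1OE, Dpt came first with a mean of 384 CPM per kb, ahead of Lum (32.9) and Dcn (31.6), and Pdgfra was lowest (0.347). In N1KO, Lum (1013 CPM per kb) and Dcn (888) came before Dpt (422), and in re-isolated control the order over all 9 was Dcn (322), Lum (164) and Dpt (162). That order turned with the control set, with Dcn (566), Lum (273) and Dpt (198) in the marked and Dpt (118), Clec3b (37.4), Ly6a (31.1), Lum (27.5) and Dcn (16.7) in the unmarked controls. Between Lum and Dcn in N1OE and in N1KO, and between Dcn and Lum and between Lum and Dpt over all controls, the difference was smaller than the SD of either gene. In cultured control cells Ly6a led with 105 CPM per kb, far above Dcn (2.69), the next member. Dcn ranked 22, 8 and 11 among all genes by CPM in the 3 N1KO libraries, and between 734 and 1593 in the 4 N1OE libraries. The ratio of Dcn to Lum CPM was 0.550 to 5.42 in all re-isolated libraries but control replicate 7, where it was 516 with 1786 CPM of Dcn and 3.46 CPM of Lum.

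In culture, NICD1 overexpression went with more Fap and less Ly6a. Fap had 32.9, 9.44 and 8.07 CPM in cultured N1OE cells, against 0.230, 0, 0.139 and 1.37 CPM in cultured control cells. Ly6a had 4.60, 13.7 and 12.2 CPM in N1OE cells, against 39.0, 121, 272 and 74.4 CPM in control cells. For both genes, and for Cxcl14 among the other members, the groups did not overlap. The share of all genes without overlap was not counted. Fap rose by 5.74 ± 1.08 on the log2 scale (SE, limma adjusted p = 0.0214) and Ly6a fell by 3.42 ± 0.68 (limma adjusted p = 0.0255). With 3 libraries against 4, both calls were lost when any N1OE library was left out, with adjusted p from 0.0847 to 0.0910 for Fap and from 0.0860 to 0.0927 for Ly6a. Ly6a was also lost without control replicate 2 (adjusted p = 0.0689), and both were lost in limma-voom on the recovered reads (0.0509 for Fap and 0.0708 for Ly6a). The difference in reads within pairs of libraries was taken as chi-squared per degree of freedom. It was 3.31 to 34.99 for cultured N1OE and 48.3 to 154.7 for cultured control pairs. By this measure every N1OE pair was closer than any control pair. Whether N1OE libraries share a culture was not tested. If some do, both calls rest on fewer than 3 independent N1OE cultures.

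Only 3 of the 9 genes were expressed highly enough in culture to be tested (1 CPM or more in at least 3 libraries), and 2 of them passed, beside 10.8% of all 12314 genes tested. Ly6a reached 1 CPM in every library, but Fap met the filter through its N1OE libraries and Dcn through its control libraries. A lower call for Fap was therefore hardly possible, and its call is not independent of the filter. The third, Dcn, had 4.16, 0.252 and 0.406 CPM in N1OE cells, against 3.22, 16.5, 1.72 and 41.5 CPM in control cells, and did not pass (log2 fold change -3.24 ± 1.33, limma adjusted p = 0.143). The other members were near the floor in both groups. Cxcl14 had 0 reads in all 3 N1OE libraries, against 0.138, 1.70, 2.55 and 0.238 CPM in control cells. Setting 3 reads over the N1OE group, it was at least 21.7-fold lower in N1OE, or at least 11.4-fold lower without control replicate 3. Lum had 0 reads in every N1OE library and in 3 of the 4 control libraries, and 14.99 CPM in control replicate 4. Pdgfra had 0.0990, 0 and 0.254 CPM in N1OE cells, against 0.0919, 1.24, 0.511 and 3.15 CPM in control cells. Dpt, Pi16 and Clec3b had between 0 and 4 reads in each N1OE library and between 0 and 13 in each control library, and the groups overlapped.

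Among related genes fixed in lists, 2 of 12 tested other fibro-adipogenic and fibroblast genes were lower in cultured N1OE cells and none was higher. These were Osr1, a transcription factor of connective tissue progenitors (-3.65 ± 0.51, limma adjusted p = 0.00960), and Gsn, the gene of the actin-severing protein gelsolin (-1.83 ± 0.26, limma adjusted p = 0.00988). Of 6 tested genes of platelet-derived growth factors and their receptors, the ligand gene Pdgfd was lower (-1.25 ± 0.19, limma adjusted p = 0.0113). None of 5 small leucine-rich proteoglycans, 12 collagen and matrix genes or 5 adipogenic genes passed in either direction. The median log2 change was -0.16 over the other fibro-adipogenic genes and 0.0653 over all genes tested. Markers of other cells moved as well. Of 11 tested satellite cell markers 2 were higher in N1OE (Heyl and Cdh15), and all 12 summed to 1940 to 2365 CPM in N1OE and 677 to 1703 CPM in control cells. Of 6 tested pericyte and smooth muscle markers Notch3 was higher and Acta2 lower, and of 2 tested Schwann and glial markers Ngfr was lower. Their part in the levels of Fap and Ly6a was not tested.

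In re-isolated cells N1OE had far less Ly6a and less Clec3b than control. Ly6a had 2.95, 1.70, 6.87 and 1.19 CPM in N1OE libraries. In the controls it had 169, 28.5, 94.2, 26.4 and 162 CPM in the marked and 20.7, 36.4, 24.4 and 68.5 CPM in the unmarked libraries. Every N1OE value thus lay below every control of either set. The log2 fold change was -4.30 ± 0.56 (SE, limma adjusted p = 7.89e-05), with -4.79 ± 0.56 against marked and -3.69 ± 0.48 against unmarked controls (limma adjusted p = 7.76e-06 and 3.78e-05). The call was kept in all 16 fits that left out a library.

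Clec3b had 2.23, 10.6, 1.80 and 4.41 CPM in N1OE libraries, against 85.8, 28.9, 22.1, 145 and 4.25 CPM in marked and 30.7, 74.3, 26.2 and 17.2 CPM in unmarked controls. All 4 N1OE values were below the unmarked controls, and control replicate 9 (4.25 CPM) was the only marked control among them. This was a log2 fold change of -3.09 ± 0.69 (limma adjusted p = 0.00895), and it was -3.09 against marked and -3.08 against unmarked controls. In limma-voom the adjusted p was 0.0657. These 2 calls among 9 genes tested stand beside 7.06% of all 14155 genes.

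Pi16 had 4.56, 27.3, 4.55 and 14.1 CPM in N1OE libraries, against 96.4, 34.0, 37.2, 91.6 and 59.0 CPM in marked and 15.9, 36.8, 9.22 and 59.3 CPM in unmarked controls. N1OE lay below all marked controls and overlapped the unmarked ones. The log2 fold change of -2.04 ± 0.64 did not pass against all controls (limma adjusted p = 0.0596) but did so in 5 of 16 fits that left out a library. It was -2.61 ± 0.60 against marked (adjusted p = 0.00582) and -1.32 ± 0.68 against unmarked controls (adjusted p = 0.174).

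For Dcn the sign turned with the set of controls. It had 127, 194, 233 and 185 CPM in N1OE libraries, against 5365, 1364, 1786, 7367 and 640 CPM in marked and 46.5, 96.8, 19.9 and 227 CPM in unmarked controls. N1OE lay below every marked control and within or above the unmarked ones. The log2 fold change was -3.66 ± 0.55 against marked controls (limma adjusted p = 0.000123) and 1.43 ± 0.52 against unmarked controls (adjusted p = 0.0577), with -1.40 ± 1.16 against all 9 (adjusted p = 0.501). Lum did not pass against either set, with log2 fold changes of -1.46 ± 1.13 and 0.76 ± 0.71.

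Dpt and Fap were higher in N1OE when set against the unmarked controls. Dpt had 402, 855, 462 and 929 CPM in N1OE libraries, against 188, 497, 227, 303 and 489 CPM in marked and 77.4, 104, 99.9 and 529 CPM in unmarked controls. Its log2 fold change was 2.11 ± 0.48 against unmarked controls (limma adjusted p = 0.00421), 0.97 ± 0.37 against marked (adjusted p = 0.102) and 1.48 ± 0.48 against all (adjusted p = 0.0683), where it passed without control replicate 4 or 6 (0.0420 and 0.0417). Fap had 28.7, 39.5, 37.1 and 93.2 CPM in N1OE libraries, against 26.8, 63.5, 31.6, 49.5 and 54.98 CPM in marked and 6.14, 15.4, 12.1 and 19.4 CPM in unmarked controls. All 4 N1OE values exceeded the unmarked controls and overlapped the marked ones. Fap differed by 1.86 ± 0.44 against unmarked (limma adjusted p = 0.00555) and 0.05 ± 0.40 against marked controls (adjusted p = 0.956). Of the 9 genes, 4 passed against marked controls and 4 against unmarked controls, beside 11.7% and 19.5% of all genes tested, and only Ly6a and Clec3b passed against both.

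**Figure D3:**
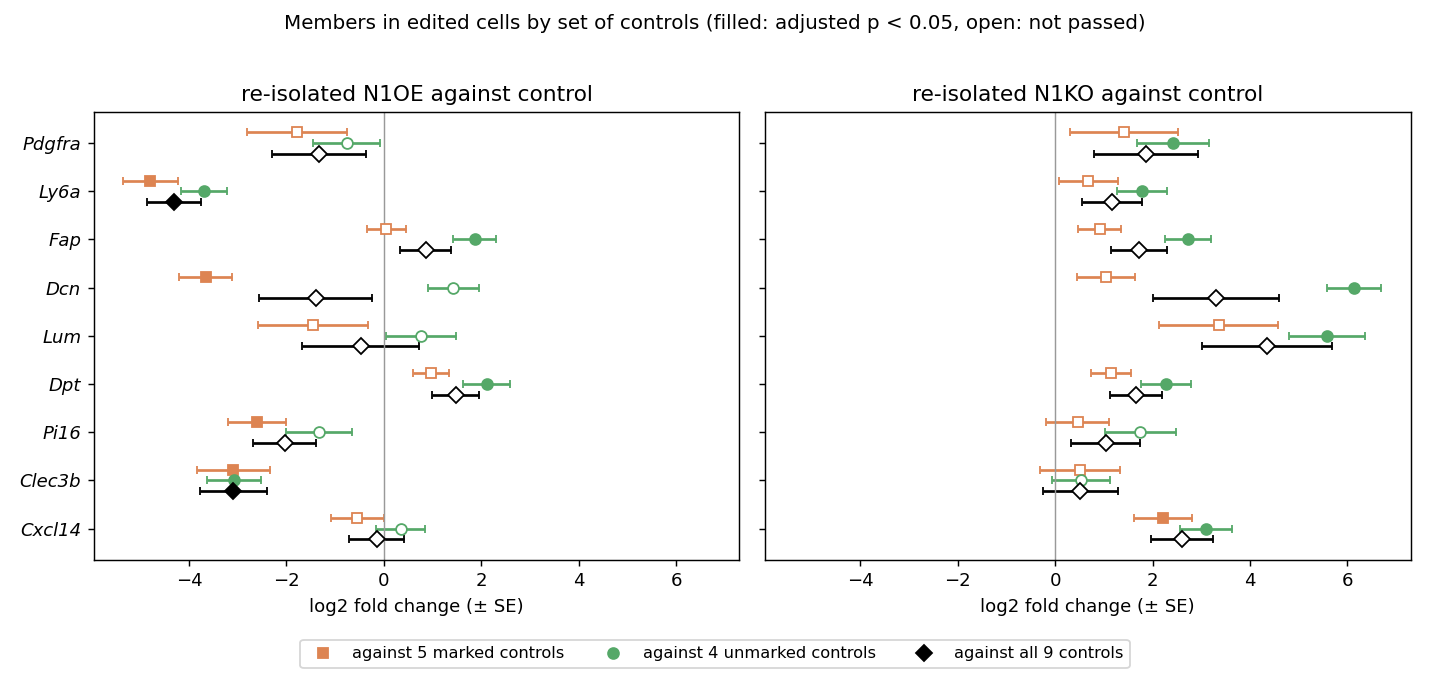
Log2 fold change (± SE) of each marker gene in re-isolated N1OE (left) and N1KO (right) against 5 marked, 4 unmarked or all 9 re-isolated controls. Filled symbols have a limma adjusted p under 0.05. For Dcn the N1OE value is -3.66 against marked and 1.43 against unmarked controls, while for Ly6a and Clec3b the N1OE values lie below 0 with every set.

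In lists of related genes, 3 of 21 tested other fibro-adipogenic and fibroblast genes were lower in re-isolated N1OE than in control and none was higher. They were Sfrp2, a secreted Wnt modulator (-5.78 ± 1.01, limma adjusted p = 0.00139), Pcolce2, an enhancer of procollagen processing (-2.84 ± 0.58, adjusted p = 0.00453), and Cd248, the surface protein endosialin (-1.63 ± 0.34, adjusted p = 0.00592). The median log2 change of the list was -0.08, against 0.0631 over all genes tested. Of 11 small leucine-rich proteoglycans, a list that holds Dcn and Lum too, 4 were lower, namely Podn, Ogn and Fmod, with log2 fold changes from -4.01 to -1.72, and Epyc, with 0 to 0.172 CPM in N1OE libraries and 0 to 89.0 CPM in controls. Bgn, the gene of biglycan and the most abundant of the family in N1OE, averaged 2947 ± 753 CPM in N1OE and 3459 ± 1336 CPM in control and did not pass. Of the platelet-derived growth factor genes, the ligand Pdgfb was higher (2.73 ± 0.45, limma adjusted p = 0.000862) and Pdgfrl, a receptor-like gene, was lower (-1.82 ± 0.41, adjusted p = 0.00903). Col1a1 and Postn, a fibrillar collagen and the matrix protein periostin, were the 2 of 12 collagen and matrix genes that were lower. The mesenchymal transcription factor Zfp423, a regulator of adipocyte commitment, was the only 1 of 7 adipogenic genes that was lower (-1.92 ± 0.37, adjusted p = 0.00288). Markers of other cells moved with these genes. Of 12 satellite cell markers 3 were higher (Megf10, Chrdl2 and Spry1), of 6 endothelial markers 2 were higher (Kdr and Emcn), and the mesothelial markers Msln and Krt19 were lower. The summed mesothelial markers were 2.15 to 2.71 CPM in N1OE and 28.0 to 234 CPM in control libraries. Their part in the results on Ly6a and Clec3b was not tested.

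In re-isolated N1KO cells all 9 log2 fold changes against control were above 0, but none passed the test with limma, beside 0.657% of all 14155 genes (93 genes; 1641 had an unadjusted p under 0.05). The share of all genes above 0 was not counted, and the median log2 change over all genes tested was 0.0123. Members were partly correlated over these libraries, so their signs are not 9 independent observations. Counts of members passing with other settings ran from 0 to 7. Cxcl14 came nearest. It had 99.0, 103 and 204 CPM in N1KO libraries, against 64.4, 13.9, 10.1, 82.1 and 21.4 CPM in marked and 8.20, 19.3, 7.68 and 39.9 CPM in unmarked controls. Every N1KO value lay above every control. The log2 fold change was 2.60 ± 0.63 (limma adjusted p = 0.0588), and it passed against marked controls (2.21 ± 0.59, adjusted p = 0.0411), against unmarked controls (3.10 ± 0.54, adjusted p = 0.00115) and in limma-voom with all controls (2.61, adjusted p = 0.0256). It also passed without control replicate 1 or 8 (adjusted p = 0.0364 and 0.0317).

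The proteoglycan genes showed how wide the control group was. Dcn had 2971, 8338 and 4238 CPM in N1KO libraries, a range that overlapped the marked controls (640 to 7367 CPM) and lay above all unmarked controls (19.9 to 227 CPM). Its log2 fold change was 3.31 ± 1.29 against all controls (limma adjusted p = 0.289), 1.05 ± 0.60 against marked (adjusted p = 0.336) and 6.13 ± 0.56 against unmarked controls (adjusted p = 5.57e-06). Lum had 1052, 4789 and 1595 CPM in N1KO libraries, against 991, 264, 3.46, 1920 and 163 CPM in marked and 84.5, 71.7, 4.61 and 108 CPM in unmarked controls. Lum differed by 4.34 ± 1.33 on the log2 scale against all (limma adjusted p = 0.150), 3.35 ± 1.23 against marked (adjusted p = 0.127) and 5.58 ± 0.77 against unmarked controls (adjusted p = 0.000132). Against the unmarked controls, 7 of 9 genes were higher beside 3.88% of all genes higher. Against the marked controls only Cxcl14 was, beside 2.59%.

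The other genes that passed only against unmarked controls were Pdgfra, Ly6a, Dpt and Fap. Pdgfra had 8.26, 27.1 and 42.2 CPM in N1KO libraries, against 27.9, 15.1, 1.65, 70.2 and 0.577 CPM in marked and 9.57, 4.05, 1.64 and 3.55 CPM in unmarked controls (2.43 ± 0.74, limma adjusted p = 0.0485). The marked controls alone thus spanned 122-fold for this receptor gene. Ly6a had 99.0, 165 and 94.5 CPM in N1KO libraries and was 1.79 ± 0.52 higher than in unmarked controls (adjusted p = 0.0381). Dpt had 473, 911 and 797 CPM and was 2.29 ± 0.51 higher (adjusted p = 0.00814), and Fap had 80.4, 148 and 44.6 CPM and was 2.73 ± 0.47 higher (adjusted p = 0.00109). Pi16, with 26.0, 66.4 and 298 CPM, and Clec3b, with 19.2, 76.5 and 65.6 CPM, overlapped both sets and passed against neither. Giving both control sets equal weight, Dcn, Lum, Dpt, Fap and Cxcl14 were higher in N1KO (limma adjusted p from 0.00317 to 0.0391). The share of all genes passing in that setting was not counted.

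Of 21 other fibro-adipogenic and fibroblast genes tested, only Ly6c1 was higher in N1KO than in all controls (2.57 ± 0.53, limma adjusted p = 0.0337). It lies beside Ly6a and is near-identical to Ly6c2, and endothelial cells express it too. The median log2 change of the list was 0.98, against 0.0123 over all genes tested. The fatty acid carrier gene Fabp4, which is active in adipocytes and in capillary endothelium, was higher by 4.63 ± 0.73 (adjusted p = 0.00573) with 52.7 ± 48.0 CPM in N1KO and 2.27 ± 2.27 CPM in control. The collagen gene Col1a2 was higher by 5.47 ± 1.16 (adjusted p = 0.0356). No other of the 12 collagen and matrix genes passed, and none of 11 small leucine-rich proteoglycans or 7 platelet-derived growth factor genes did. Endothelial markers moved with these genes. Cldn5, Pecam1, Emcn and Kdr, 4 of 6, were higher, and all 6 summed to 43.5 to 131 CPM in N1KO and 5.16 to 38.3 CPM in control libraries. The summed macrophage markers were 149 to 516 CPM in N1KO and 36.6 to 552 CPM in control, with none of 6 passing. Of 6 tenocyte and chondrocyte markers 1 was higher and 0 lower, with a median log2 change of 3.51. They summed to 731 to 1755 CPM in N1KO and 302 to 1141 CPM in control, ranges that overlapped. The part of these cells in the levels of Ly6a and the other members was not tested.

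Set directly against each other, re-isolated N1OE and N1KO differed in 4 of the 9 genes, all lower in N1OE, where 4.43% of all genes tested were lower and 7.35% passed in either direction. Of these, Ly6a was lower by the most, at -5.48 ± 0.71 (SE, limma adjusted p = 0.000107). Clec3b was at -3.61 ± 0.87 (adjusted p = 0.0145), Pi16 at -3.07 ± 0.82 (adjusted p = 0.0248) and Cxcl14 at -2.75 ± 0.72 (adjusted p = 0.0235). Cxcl14 had 40.2, 9.75, 25.8 and 12.7 CPM in N1OE libraries, all below the N1KO libraries. Ly6a passed in all 16 fits that left out a library, Clec3b in 14, Pi16 in 12 and Cxcl14 in 11. Without N1KO replicate 2 or without N1KO replicate 3, only Ly6a passed. In limma-voom Clec3b did not pass (adjusted p = 0.0602). The number of 1-read genes per 2-read gene was 4.18 to 6.82 in N1OE and 1.25 to 1.40 in N1KO, so genotype and this difference between the libraries cannot be told apart.

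Dcn and Lum did not overlap between N1OE and N1KO, with 185 ± 43.9 against 5182 ± 2805 CPM and 80.4 ± 42.7 against 2479 ± 2019 CPM (SD, n = 4 and 3). How many of all genes separated in this way was not counted. Dcn and Lum did not pass the test here. Their log2 fold changes of -4.71 ± 1.48 and -4.82 ± 1.53 missed the threshold (limma adjusted p = 0.0581 and 0.0596) in a fit whose spread includes the 9 controls. Without control replicate 1, 5 or 8 both passed (adjusted p from 0.0261 to 0.0428). Dpt differed by -0.18 ± 0.61 and Fap by -0.86 ± 0.66, and neither passed. Of the 11 small leucine-rich proteoglycans 7 were lower in N1OE, among them Ogn, Podn, Fmod and Epyc (adjusted p from 0.000656 to 0.00293). Kera, the neighbour of Lum, had 0 reads in all 4 N1OE libraries and 12.4 to 43.7 CPM in N1KO libraries. Of 21 other fibro-adipogenic and fibroblast genes 7 were lower, led by Sfrp2 (-8.81 ± 1.29) and Ly6c1 (-3.93 ± 0.60), and none was higher. The median log2 change of the list was -1.45, against 0.0652 over all genes tested. In the same comparison 5 of 12 satellite cell markers were higher in N1OE (Megf10, Spry1, Chrdl2, Heyl and Calcr) and none was lower. Of 6 tenocyte and chondrocyte markers 3 were lower in N1OE (Tnmd, Comp and Mkx). All 6 summed to 251 to 843 CPM in N1OE and 731 to 1755 CPM in N1KO, ranges that overlapped. Of 6 endothelial markers 1 was lower in N1OE (Cldn5), of 6 macrophage markers 1 (Cd68) and of 3 tested mesothelial markers 2 (Krt19 and Msln). The 6 macrophage markers summed to 22.8 to 118 CPM in N1OE and 149 to 516 CPM in N1KO, and the 5 mesothelial markers to 2.15 to 2.71 CPM in N1OE and 8.70 to 79.5 CPM in N1KO. The 6 endothelial markers summed to 41.4 to 85.0 CPM in N1OE and 43.5 to 131 CPM in N1KO. The part of these cell types in the levels of Dcn, Lum and the other members was not tested.

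Most of the markers were higher in re-isolated than in cultured cells, a comparison that joins setting and kit. In control cells 8 of 9 genes were higher after re-isolation, where 24.1% of all genes tested were higher and 58.1% passed in either direction. Of the 9 genes only Ly6a and Dcn reached 1 CPM in at least 3 cultured control libraries. The others met the filter only through re-isolated libraries, where they were high, so a lower call was hardly possible for them. Their part of the count was thus largely set by the filter. Dpt had 77.4 to 529 CPM (median 227) in the 9 re-isolated control libraries, against 0, 0, 0 and 0.297 CPM in cultured control cells. The ratio of pooled reads for Dpt was 4047 (95% counting interval 1734 to 12465, from 5 cultured reads). The same ratio was 268 for Pi16 (160 to 490), 234 for Clec3b (144 to 409), 74.6 for Fap (52.5 to 110) and 25.6 for Cxcl14 (20.8 to 32.0). For Pi16, Clec3b, Fap and Cxcl14 leaving out 1 cultured library moved the ratio past its counting interval. Without cultured control replicate 4 the ratio was 2914 for Pi16, 484 for Clec3b and 225 for Fap, and without cultured control replicate 3 it was 48.8 for Cxcl14. For these 5 genes no re-isolated control overlapped a cultured control, and the share of all genes without overlap was not counted. Dcn and Lum were higher by 5.91 ± 1.43 and 8.79 ± 1.72 on the log2 scale (limma adjusted p = 0.00240 and 0.000470), and low re-isolated controls overlapped cultured control replicate 4. Lum did not pass in limma-voom (adjusted p = 0.200). Pdgfra was higher by 2.93 ± 1.11 (adjusted p = 0.0332), a call lost without any 1 of 4 libraries, cultured control replicate 1 or 3 or re-isolated control replicate 1 or 4 (adjusted p from 0.0516 to 0.141). It was also lost on log2(CPM + 1) (0.0569) and log2(CPM + 5) (0.102), in limma-voom (0.145) and with only marked controls (0.0540).

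Ly6a was the exception in both genotypes. In control cells it had 20.7 to 169 CPM (median 36.4) after re-isolation, against 39.0 to 272 CPM in culture, with a log2 fold change of -0.95 ± 0.62 that did not pass (limma adjusted p = 0.201). In N1OE cells it was lower after re-isolation, with 2.95, 1.70, 6.87 and 1.19 CPM against 4.60, 13.7 and 12.2 CPM in culture (-1.83 ± 0.60, limma adjusted p = 0.0178). That call was lost without re-isolated N1OE replicate 2 or 4 or cultured N1OE replicate 2 or 3 (adjusted p from 0.0542 to 0.0663). The other 8 genes were higher in re-isolated than in cultured N1OE cells, where 25.3% of all genes tested were higher and 58.2% passed in either direction. Of these 8 genes only Fap reached 1 CPM in all 3 cultured N1OE libraries. For the others the filter was met only through re-isolated libraries and largely set the direction. Lum and Cxcl14, at 0 reads in cultured N1OE cells, were at least 1400-fold and at least 446-fold higher after re-isolation, with 3 reads set over the cultured group. The bounds fell to 893-fold for Lum without cultured N1OE replicate 1 and to 271-fold for Cxcl14 without re-isolated N1OE replicate 1. Dpt had 51569 reads in re-isolated and 1 read in cultured N1OE cells, a ratio per library total of 36201 (95% counting interval 6497 to 1.43e+06), or 8630 as a bound from 3 reads without cultured N1OE replicate 2, which held that read. Pi16 had 987 reads in re-isolated and 3 reads in cultured N1OE cells, a ratio of 231 (78.8 to 1122), or 142 without re-isolated N1OE replicate 2. Pdgfra rose by 4.08 ± 0.85 and Dcn by 7.75 ± 0.69 on the log2 scale (limma adjusted p = 0.00104 and 7.71e-07). The Pdgfra value rested on 7 cultured reads. Only re-isolated N1OE replicates 2, 3 and 4 reached 1 CPM of Pdgfra, so without any 1 of them it was not tested.

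**Figure D4:**
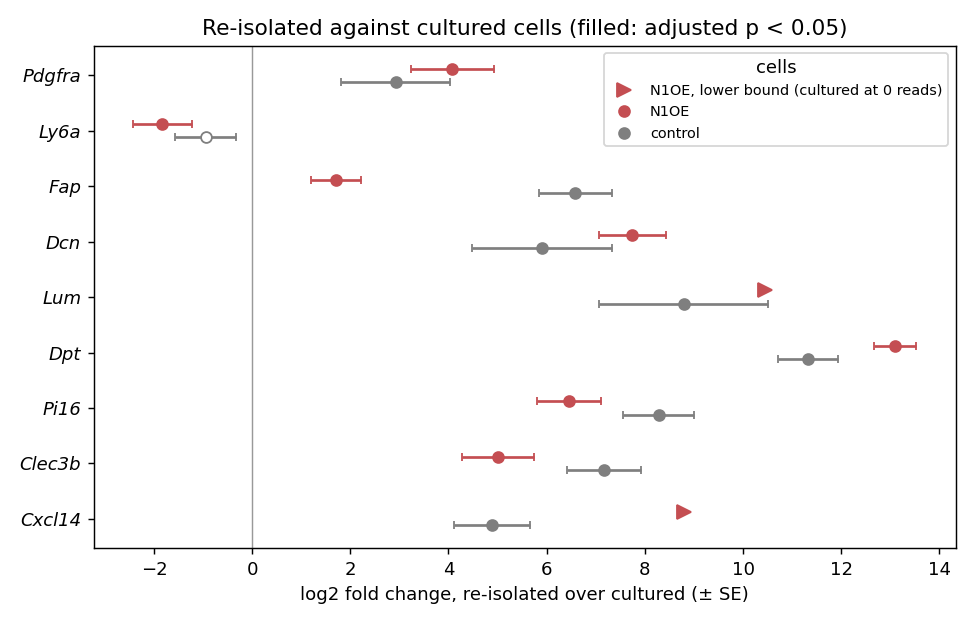
Log2 fold change (± SE) of each marker gene in re-isolated over cultured cells, for N1OE and for control cells. Triangles are lower bounds for Lum (1400-fold) and Cxcl14 (446-fold) in N1OE cells, where the cultured libraries had 0 reads. The fitted values of Dpt, Pi16 and Clec3b, and that of Pdgfra in N1OE cells, rest on few cultured reads. Ly6a alone lies below 0, and only its control value is open (adjusted p not under 0.05).

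Other mesenchymal genes moved with the members across settings. Of 21 other fibro-adipogenic and fibroblast genes tested, 14 were higher and 2 lower in re-isolated than in cultured control cells, with Has1, Apod, Col15a1 and Gfpt2 among the higher (log2 fold changes from 6.93 to 10.18). The median over the list was 2.50, against -0.23 over all genes tested. In control cells 9 of 11 small leucine-rich proteoglycans, with the members Dcn and Lum among them, and 8 of 12 collagen and matrix genes were higher. In the fit of cultured cells only 12 of the other fibro-adipogenic and fibroblast genes and 5 of the proteoglycans met the filter. The rest needed re-isolated libraries to meet it, which favoured higher calls for them too. In N1OE cells 13 of 20 tested other fibro-adipogenic and fibroblast genes were higher and 4 lower. There 8 of 9 tested proteoglycans, again with Dcn and Lum among them, and 10 of 12 matrix genes were higher. Dpp4, which lies 88.7 kb from Fap and marks the same progenitor-like fibroblasts as Pi16, averaged 1.39 ± 1.496 CPM after re-isolation and 0.374 ± 0.0896 CPM in culture and did not pass (limma adjusted p = 0.443). Of 9 adipogenic genes 7 were tested in control cells. Cebpa and Lpl were higher, and Pparg, the master regulator of adipocytes, was lower (-3.17) along with Zfp423 (-2.03). Markers of other cells moved too, with 5 of 6 macrophage and 6 of 8 pericyte and smooth muscle markers higher in re-isolated control cells and 1 of the latter lower. Of 12 satellite cell markers 6 were higher and 2 lower, and of 4 tested Schwann and glial markers 3 were higher. Of 6 tenocyte and chondrocyte markers 3 were higher and 1 lower. The macrophage marker Adgre1 had 0 reads in all 7 cultured libraries, and 0 to 34.1 CPM in re-isolated control libraries.

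With all controls, only Fap among the 9 members had an N1OE effect that differed between settings, beside 3.27% of all 14509 genes tested. The N1OE effect on Fap was 4.88 ± 1.06 lower on the log2 scale in re-isolated than in cultured cells (interaction term, limma adjusted p = 0.00834). The difference was -5.69 ± 0.98 with marked and -3.87 ± 1.05 with unmarked re-isolated controls (limma adjusted p = 0.000930 and 0.0212), and it was called in all 23 fits that left out a library. The cultured control values of Fap were 0 to 1.37 CPM. On a log2(CPM + 1) scale it was -2.63 (adjusted p = 0.0696), and limma-voom gave -5.17 (adjusted p = 0.177). For Ly6a the difference was -0.88 ± 0.93 (adjusted p = 0.738), so that a difference in its N1OE effect between settings was not shown. For Cxcl14 it was 3.55 ± 1.07 (adjusted p = 0.0678), and the cultured N1OE cells stood at 0 reads. Pdgfra, Dpt, Pi16, Clec3b, Cxcl14 and Lum met the filter of this fit only with re-isolated libraries. Most of these stood near 0 reads in culture, so their not passing says little about an N1OE effect there. With unmarked re-isolated controls alone, Cxcl14 (4.05) and Dcn (4.66) passed as well (limma adjusted p = 0.0176 and 0.0226), beside 10.8% of all genes.

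Within the re-isolated controls, the marked libraries had more Dcn and Fap than the unmarked ones, where 13.6% of all genes tested were higher and 27.6% passed in either direction. Dcn differed by 5.08 ± 0.76 on the log2 scale (limma adjusted p = 0.000996), with 3304 ± 2912 CPM in marked and 97.6 ± 92.2 CPM in unmarked controls (SD, n = 5 and 4). Fap differed by 1.81 ± 0.37 (limma adjusted p = 0.00442), with 45.3 ± 15.6 CPM in marked and 13.2 ± 5.603 CPM in unmarked controls. For both genes the sets did not overlap, and the share of all genes without overlap was not counted. The other 7 genes did not pass, though 6 of them had a log2 fold change of 0.89 or more, and Clec3b was at 0.01 ± 0.83. Without control replicate 6, which had 529 CPM of Dpt and 59.3 CPM of Pi16, these 2 genes passed as well (adjusted p = 0.00575 and 0.0256). Lum passed without control replicate 7 (3.68, adjusted p = 0.0241). The sample description of control replicate 7 lacks the mark, and with the descriptions as the split neither Dcn nor Fap passed (adjusted p = 0.2498 for each).

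Among related genes, 9 of 21 other fibro-adipogenic and fibroblast genes were higher in the marked controls and none was lower, with Cd34, Fbn1, Sfrp2 and Has1 leading (log2 fold changes from 1.85 to 3.53). The median over the list was 1.37, against -0.00496 over all genes tested. Of 12 collagen and matrix genes 9 were higher, with Col6a3 at 3.34 ± 0.35 (limma adjusted p = 0.000169). Higher too were 5 of 11 small leucine-rich proteoglycans, with the member Dcn among them. Among 12 satellite cell markers 4 were lower in the marked controls (Sdc4, Cdh15, Heyl and Pax7). All 12 summed to 1582 to 2662 CPM in marked and 2733 to 3648 CPM in unmarked controls, and these ranges did not overlap. Of 6 macrophage markers 2 were higher, and of 5 tested endothelial markers 1 was higher. Of 8 pericyte and smooth muscle markers 1 was higher and 2 lower. Of 5 tested tenocyte and chondrocyte markers 1 was higher and 1 lower, and of 4 tested Schwann and glial markers 1 was lower. The part of these differences in the levels of Dcn and Fap was not tested, and what the mark stands for is not given in the labels.

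The 9 genes rose and fell together only in part over the 16 re-isolated libraries. As a description with no test, and over libraries that share groups, kit and control sets, the rank correlation (Spearman's rho) of log2 CPM was highest for Pdgfra with Clec3b (0.776), Dpt with Fap (0.759) and Dcn with Lum (0.759). It was negative only for Dpt with Clec3b (-0.279), Clec3b with Fap (-0.0706) and Ly6a with Dpt (-0.0235), and positive for every other pair of members. Among 14154 other genes, those most like a member by the same measure were Gdf6 (0.959) and Inhba (0.953), both genes of TGF-beta family ligands, for Ly6a. For Dcn they were Sult1a1 (0.932) and Clec1a (0.924), for Fap Enc1 (0.926) and Fkbp5 (0.874), and for Lum Il33 (0.915) and Sox17 (0.876). For Cxcl14 they were 9130008F23Rik (0.909) and Radil (0.906), for Clec3b Amn (0.884) and Fbln7 (0.824), and for Pi16 C7 (0.866) and Pthlh (0.865). Dpt was most like Pde3a (0.838) and Ccdc163 (0.829), and Pdgfra most like Htra4 (0.829) and Mab21l3 (0.818).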

How the data were processed

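RNA of 23 libraries was sequenced, and samples were grouped by their titles. The deposited values are log2 CPM made by the authors. The submitters' processing notes list Trimmomatic 0.33, FastQC, featureCounts, edgeR and the build mm10, and no aligner or annotation was named. The lowest deposited value, -4.19, marks a gene with 0 reads. Back-transformed values were whole multiples of 1 read in 100% of cases (tolerance 0.05 reads), which gave reads and totals. Of the 21264 gene IDs, 21224 were in GENCODE M21.

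Tests used limma 3.58.1 in R 4.3.3 on the deposited values (eBayes with a trend, two-sided). A gene was tested where 3 or more libraries of that fit reached 1 CPM, and p-values were Benjamini-Hochberg adjusted over all such genes at 0.05. Separate fits held the cultured groups, all re-isolated groups, each genotype across settings, every group for the interaction, and the control libraries by mark. Fold changes are on the scale of the deposited log2 values and understate changes of low genes. SE is that of limma. Bounds set 3 reads over a group, and counting intervals are exact at 95%. For no comparison was the share of all genes without overlap between groups counted. Scripts were tested on simulated data.

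All members are named. Of each other list up to 4 genes with the smallest p are named, and for likeness the 2 genes with the highest rank correlation. Bgn, Dpp4, Adgre1, Kera and Calcr fall outside this rule and were chosen after their values were seen. The members and lists were chosen with earlier results of these data known. Alternatives were other pseudocounts and filters, median ratio scaling, limma-voom, a replicate block, other control sets and leaving out libraries.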

Additional observations from a re-analysis of the deposited data

Results flagged for a closer look

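In cultured control cells replicate 4 stood apart from the other 3 libraries for Lum (14.99 CPM, against 0 reads in each of the others) and for Dpt (0.297 CPM, against 0 reads in each). In both cases the gap from this library to the nearest other was 1.0 of the whole range of the group. That value follows whenever every other library has 0 reads, however small the remaining value, so it carries no weight here. For Dpt the library held 5 reads. Among 27 groups of 4 to 10 libraries examined, 2 were picked out in this way. The chance rate of about 1 in 20 holds for values without ties, and cannot be applied to values tied at 0 reads.

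The N1OE effect on Fap differed between settings by the interaction term, -4.88 on the log2 scale for re-isolated minus cultured cells.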

How the results depend on the processing

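Counts of members that passed changed with some settings. In culture 2 of 3 tested members passed, and 0 did in limma-voom or with only the libraries whose description has the usual form. Left out in the last setting was replicate 1 of both cultured groups, whose descriptions alone have the other form. For re-isolated N1OE against control the count was 2, with 1 in limma-voom and 4 each with only marked controls, only unmarked controls or equal weight of both sets. For N1KO against control it was 0, with 1 each on log2(CPM + 1), on log2(CPM + 5), in limma-voom and with only marked controls, 5 with equal weight and 7 with only unmarked controls. For the difference of N1OE effects it was 1, with 0 on log2(CPM + 1), on log2(CPM + 5) and in limma-voom, and 3 with only unmarked controls, a choice made after seeing the data. Between marked and unmarked controls it was 2, with 0 when the mark was taken from the descriptions. The cause of these changes was not tested. The share of all genes passing was counted only for the first fits and for fits with 1 control set. It was not counted for the other settings, the replicate block among them, so those member counts cannot be read against all genes.

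Leaving out each library gave 0 to 2 members in culture, 2 to 3 for re-isolated N1OE and 0 to 1 for N1KO against control, 1 to 6 for N1OE against N1KO, 7 to 8 for control and 7 to 9 for N1OE between settings, 1 to 2 for the difference of effects and 2 to 4 between control sets. Signs turned only for values that had not passed in the first fit. For N1OE against control with only unmarked controls, Dcn was at 1.43, Cxcl14 at 0.35 and Lum at 0.76. Leaving out libraries, Cxcl14 there ran from -0.51 to 0.17 and Lum from -1.07 to 0.062, Dpt for N1OE against N1KO from -0.46 to 0.031, Lum for the difference of effects from -0.47 to 2.23 and Clec3b between control sets from -0.53 to 0.74. For the difference of effects, log2(CPM + 1) put Pdgfra at -0.29, log2(CPM + 5) put Pdgfra at -0.49, Dcn at -0.16 and Lum at -0.16, and marked controls put Dcn at -0.42. Clec3b between control sets was at -0.0083 in limma-voom.

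The replicate block paired libraries by number, and the labels do not say what such pairs share. In culture, deviations from the group mean correlated at 0.0020, 0.0836 and 0.278 for N1OE and control replicates 1, 2 and 3. In the other comparisons the correlations ran from -0.150 to 0.147. Cultured replicate 1 of both genotypes also shares a form of description that no other library has. With the block 3 members passed for N1KO against control and 7 for N1OE against N1KO, Clec3b was at -0.17 for N1KO against control, and the difference of effects was -0.063 for Pdgfra and -0.29 for Lum. Median ratio scaling raised re-isolated over cultured values by 0.27 in control and 0.24 in N1OE cells on the log2 scale, and changed no member's sign there. The planned edgeR test on recovered reads was not run. Depth limits the genes at 0 to 5 reads in culture.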
